A study of Mus musculus with 9 samples.

Results

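The collagen genes were followed in mouse primary myoblasts given BMP4 or its antagonist GREM1. They were chosen by name, as every measured gene whose symbol has the form Col, a number, a and a number. This gave 44 of the 24011 genes on the arrays, and 41 of the 44 were bright enough to be tested. By the supramolecular form of their proteins they fall into 11 fibrillar collagens, 9 collagens of basement membranes and their anchorage, and 24 others. The cells were grown from satellite cells of skeletal muscle, the stem cells of muscle fibres, on collagen-coated dishes with 20% FBS and basic FGF, and were then placed in DMEM with 2% horse serum. The control group was mock-treated, the BMP4 group received 100 ng/ml of recombinant BMP4 and the GREM1 group 500 ng/ml of recombinant GREM1, and RNA was taken after 24 h. Each group had 3 arrays, 1 per sample, and strain, age and the number of animals were not given in the sources used here.

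Collagens are secreted proteins whose chains wind around one another into a long helix. Fibrillar collagens form the fibrils that carry tension, type IV collagen forms the mesh of the basement membrane around each muscle fibre, and other families coat fibrils, link them to cells or span the cell membrane. BMP4 signals through receptors that activate SMAD transcription factors, and GREM1 binds BMP ligands outside the cell. In muscle most fibrillar collagen is made by fibroblasts of the connective tissue, while myogenic cells also make collagens, type IV among them. The comparisons ask which collagen transcripts differ when a BMP signal is added and when it is antagonised.

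All 12 myogenic markers on the list, Pax7, Myod1, Myog and Des among them, were bright enough to be tested. Of 12 measured markers of fibroblasts and fibro-adipogenic progenitors, 5 were too dim in these arrays, namely Pdgfra, Tcf21, Dpp4, Lum and Dpt. In limma 0 of the other 7 passed the test in any comparison. At an unadjusted p under 0.05 there were 1, 1 and 2 with BMP4, with GREM1 and between them, beside 8.02%, 20.0% and 19.4% of all genes. The summed linear level of the 12 markers was 259 to 273 in the controls, 251 to 268 with BMP4 and 262 to 274 with GREM1. The median log2 value of an array ranged from 5.00 to 5.12, and with 3 arrays a group the precision is limited by their number. In these bulk samples, fewer cells of a type and less RNA per cell cannot be told apart.

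Col12a1 was higher, by 1.01 ± 0.20 (SE) on the log2 scale, and Col8a1 and Col1a2 were lower, by -0.81 ± 0.15 and -0.31 ± 0.077, with BMP4 than with GREM1 (3 arrays each). These were the 3 of 41 collagens that passed there in limma, where 6.45% of all tested genes did. Against the controls, 0 of the 41 passed with BMP4 (0.117% of all genes) and 0 with GREM1 (4.28%), and every one of the 41 intervals lay inside a 2-fold change in both comparisons. With arrays paired by replicate number, 1 of the 41 fell with GREM1, Col3a1, and 1 rose, Col8a1, beside 11.6% of all genes called. Neither passed without that pairing (limma adjusted p = 0.189 and 0.104). Of these 4 genes, promoter sequences were at hand for Col8a1, Col1a2 and Col3a1, and each is printed as the 250 bases before the annotated transcription start in RefSeq, build GRCm38.p6, 5′ to 3′ on the gene's own strand. The Col8a1 sequence is chr16:57754738-57754987 (minus strand), that of Col1a2 chr6:4505368-4505617 (plus strand) and that of Col3a1 chr1:45311288-45311537 (plus strand). Capitals mark CAGAC or its reverse complement GTCTG, the core that SMAD3 and SMAD4 bind.
Col8a1: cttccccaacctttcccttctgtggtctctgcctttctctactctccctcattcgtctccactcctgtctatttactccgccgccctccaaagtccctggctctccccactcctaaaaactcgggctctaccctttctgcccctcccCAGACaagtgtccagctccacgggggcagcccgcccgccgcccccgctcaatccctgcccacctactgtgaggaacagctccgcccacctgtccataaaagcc
Col1a2: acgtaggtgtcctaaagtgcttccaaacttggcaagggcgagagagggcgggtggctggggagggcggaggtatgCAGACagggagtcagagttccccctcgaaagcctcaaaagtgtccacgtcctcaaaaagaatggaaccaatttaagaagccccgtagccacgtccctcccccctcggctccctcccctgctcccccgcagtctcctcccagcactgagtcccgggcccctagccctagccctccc
Col3a1: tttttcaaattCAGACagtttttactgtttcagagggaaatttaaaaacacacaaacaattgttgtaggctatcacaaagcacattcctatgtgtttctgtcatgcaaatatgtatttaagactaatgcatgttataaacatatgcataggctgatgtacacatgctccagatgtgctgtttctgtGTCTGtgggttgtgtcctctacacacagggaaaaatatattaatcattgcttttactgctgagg

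Col8a1 and Col1a2 held 1 such match each and Col3a1 held 2. The motif is common, since 42.2% of 32851 mouse promoter windows of this length held it on either strand, against 44.7% of 38 windows of collagen genes, from 35 of the 44 members. The GC-rich element GGCGCC, bound by BMP-activated SMADs, was in 0 of the 3 windows printed, in 9.59% of all windows and in 10.5% of collagen windows. The E-box CANNTG, the site of myogenic bHLH factors, occurred 2 times for Col8a1, 0 times for Col1a2 and 4 times for Col3a1, and was in 66.2% of all windows and 50% of collagen windows. CCAAT was found 1 time for Col1a2 (33.8% of all windows, 34.2% of collagen windows) and TATAAA 1 time for Col3a1 (12.4% and 13.2%). Each motif was searched on both strands, and a base could count toward more than 1 of the 5 motifs. These matches describe letters in a window only.

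**Figure D1:**
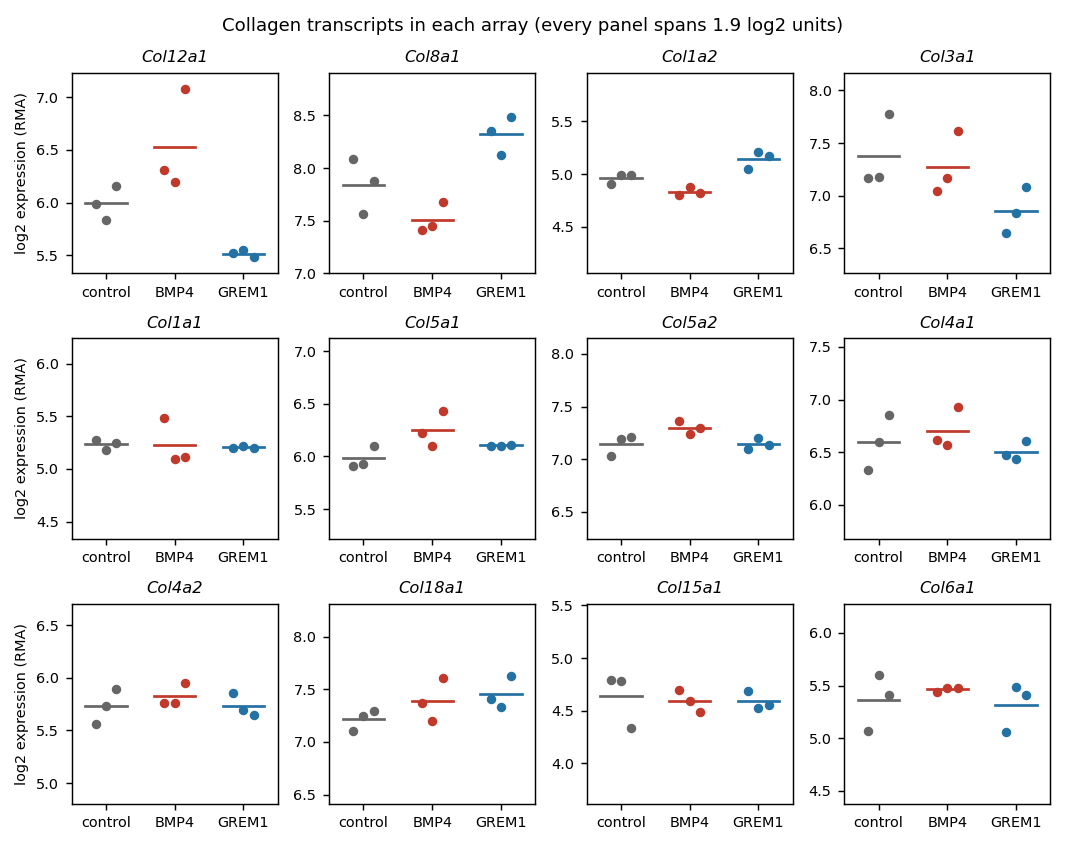
Log2 expression (vertical axis) of 12 collagen genes in each of the 9 arrays, with points for arrays, lines for group means and the same span in every panel. The groups stand apart for Col12a1 and Col1a2, with the controls between BMP4 and GREM1, whereas for Col1a1 and Col4a2 they overlap.

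Fibrillar collagens form the fibrils of connective tissue, and 10 of the 11 were tested. Type I collagen, the main collagen of tendon and bone, is built from the products of Col1a1 and Col1a2. Col1a1 (Entrez gene 12842) read 5.27, 5.18 and 5.24 in control replicates 1 to 3, 5.48, 5.09 and 5.12 with BMP4 and 5.20, 5.22 and 5.20 with GREM1. The groups overlap, and BMP4 replicate 1 is the highest array. The Col1a1 differences were -0.0017 ± 0.11 (SE) for BMP4 and -0.025 ± 0.11 for GREM1 against control. The 95% intervals of -0.24 to 0.24 and -0.26 to 0.21 exclude a 2-fold change of its array signal. Col1a2 (Entrez gene 12843) read 4.91, 4.99 and 4.99 in the controls, 4.80, 4.88 and 4.82 with BMP4 and 5.05, 5.21 and 5.17 with GREM1. Every BMP4 array lies below, and every GREM1 array above, all controls. Col1a2 differed between BMP4 and GREM1 by -0.31 ± 0.077 (1.24-fold lower with BMP4, limma adjusted p = 0.0448), against 0.023 ± 0.11 for Col1a1. Against control Col1a2 was -0.13 ± 0.077 with BMP4 and 0.18 ± 0.077 with GREM1, and neither passed (adjusted p = 0.702 and 0.237). The Col1a2 call sits at the threshold. It was lost without either of control replicates 2 and 3 or any one BMP4 or GREM1 array (adjusted p of 0.0573 to 0.149), and kept without control replicate 1 (0.0432).

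Col3a1 (Entrez gene 12825), the fibrillar collagen of distensible tissues such as skin and vessel wall, read 7.17, 7.17 and 7.78 in the controls, 7.04, 7.17 and 7.61 with BMP4 and 6.65, 6.84 and 7.08 with GREM1. All GREM1 arrays lie below all controls, and replicate 3 is the highest in each group. The difference for GREM1 was -0.52 ± 0.20 (95% interval -0.97 to -0.064), which did not pass (limma adjusted p = 0.189) but passed as a fall with the replicate number as a block (limma adjusted p = 0.00775). Without control replicate 3, the highest array, it was -0.32 ± 0.18 in the fit with no block (adjusted p = 0.400). With BMP4 it was -0.10 ± 0.20 (adjusted p = 0.921). Col5a1 and Col5a2 encode chains of type V collagen, which starts fibrils and sets their width. Col5a1 read 5.91, 5.93 and 6.10 in the controls, 6.22, 6.10 and 6.43 with BMP4 and 6.10, 6.10 and 6.11 with GREM1, and BMP4 replicate 2, control replicate 3 and GREM1 replicates 1 and 2 held the same value. Col5a1 was 0.27 ± 0.10 with BMP4 (adjusted p = 0.544) and 0.12 ± 0.10 with GREM1 (adjusted p = 0.540). Col5a2 read 7.03, 7.19 and 7.21 in the controls, 7.36, 7.24 and 7.29 with BMP4 and 7.09, 7.20 and 7.13 with GREM1. Its BMP4 arrays lie above all 6 others, with a difference of 0.15 ± 0.081 (adjusted p = 0.673). For Col5a3, the remaining type V chain, the differences were -0.016 with BMP4 and 0.099 with GREM1.

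Among the fibrillar collagens of cartilage, Col2a1 read 5.47, 5.35 and 5.18 in the controls, 5.16, 4.86 and 5.15 with BMP4 and 5.16, 5.17 and 5.12 with GREM1. Both treated groups lie below the controls, as 5.90% of all genes did with BMP4 and 12.7% with GREM1, and neither difference passed (-0.28 ± 0.11, adjusted p = 0.570, and -0.18 ± 0.11, adjusted p = 0.379). Col11a2 differed by -0.049 and 0.00034, and Col11a1 was too dim to be tested, at 3.51 to 3.94 over the 9 arrays. The less studied fibrillar genes Col24a1 and Col27a1 lay within 0.1 of the controls in both groups. Over the 10 tested fibrillar genes the median difference was -0.024 with BMP4, -0.013 with GREM1 and 0.038 between BMP4 and GREM1. Over all 17142 genes tested these medians were -0.0060, -0.0057 and -2.3e-05.

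Type IV collagen chains build the mesh of basement membranes, and none of the 9 genes in this class passed in any comparison. In limma 0, 1 and 0 members had an unadjusted p under 0.05 with BMP4, with GREM1 and between them. Of all genes 8.02%, 20.0% and 19.4% had one. Col4a1 and Col4a2, neighbours on chromosome 8 whose products assemble together, gave 6.33, 6.60 and 6.85 and 5.56, 5.73 and 5.89 in the controls. With BMP4 Col4a1 read 6.62, 6.57 and 6.93 and Col4a2 5.76, 5.76 and 5.95. With GREM1 Col4a1 read 6.47, 6.44 and 6.61 and Col4a2 5.85, 5.69 and 5.64. The groups overlap for both, and in the controls both are lowest in replicate 1 and highest in replicate 3. The differences for Col4a1 were 0.11 ± 0.14 with BMP4 and -0.087 ± 0.14 with GREM1, and for Col4a2 0.095 ± 0.11 and 0.0026 ± 0.11, all with adjusted p of at least 0.792 in limma. Col4a5, which with Col4a3 and Col4a4 builds the basement membrane of the kidney glomerulus, read 5.33, 5.31 and 5.44 in the controls and 5.63, 5.47 and 5.57 with GREM1. Its GREM1 arrays lie above all controls and all BMP4 arrays, by 0.20 ± 0.078 over control (adjusted p = 0.193).

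Col4a3, Col4a4 and Col4a6 lay within 0.12 of the controls in both groups. For Col4a6, 6 of the 9 arrays held exactly the same value, 4.45. Such repeats were frequent, with the same value in at least 2 arrays for 26 of the 44 members (59.1%) and for 47.8% of all genes, and in at least 4 arrays for 11 members (25%) and 11.8% of all genes. Col18a1, the precursor of the angiogenesis inhibitor endostatin, read 7.10, 7.25 and 7.29 in the controls, 7.37, 7.20 and 7.61 with BMP4 and 7.41, 7.33 and 7.62 with GREM1. Its GREM1 arrays lie above the controls, by 0.24 ± 0.12 (adjusted p = 0.308), and BMP4 differed by 0.18 ± 0.12 (adjusted p = 0.740). Col15a1, the related collagen of muscle and vessel basement membranes, read 4.79, 4.78 and 4.34 in the controls, with -0.045 ± 0.13 for BMP4 and -0.049 ± 0.13 for GREM1. Col7a1, which forms anchoring fibrils beneath epithelia, differed by -0.054 and -0.052. The class median was -0.028 with BMP4, 0.0026 with GREM1 and -0.031 between them.

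The collagens that lie along fibrils without forming them, called FACIT collagens, held the largest difference of all members. Col12a1 (Entrez gene 12816), which binds the surface of type I fibrils and bridges them to other matrix proteins in tendon, ligament and muscle, read 5.99, 5.83 and 6.16 in the controls. It read 6.31, 6.20 and 7.08 with BMP4 and 5.52, 5.55 and 5.48 with GREM1. The BMP4 arrays lie above and the GREM1 arrays below all controls, and BMP4 replicate 3 is the highest of the 9. Col12a1 differed between BMP4 and GREM1 by 1.01 ± 0.20 (2.01-fold higher with BMP4, limma adjusted p = 0.0177). Without BMP4 replicate 3 the difference was 0.74 ± 0.11 (adjusted p = 0.00788), and without GREM1 replicate 1, 2 or 3 it was 1.01, 1.03 and 0.99 with the call lost (adjusted p = 0.0663, 0.0632 and 0.0535). Against control it was 0.53 ± 0.20 with BMP4 (adjusted p = 0.559) and -0.48 ± 0.20 with GREM1 (adjusted p = 0.225). Without BMP4 replicate 3 the BMP4 difference was 0.26 ± 0.11 (adjusted p = 0.698), and the GREM1 difference passed (adjusted p = 0.0308).

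Col9a1, a chain of the FACIT collagen of cartilage, read 4.68, 4.61 and 4.65 in the controls, 4.74, 4.63 and 4.60 with BMP4 and 4.38, 4.46 and 4.39 with GREM1. All GREM1 arrays lie below the other 6, by 0.24 on the log2 scale against control, with SE 0.075 (adjusted p = 0.114), and BMP4 exceeded GREM1 by 0.25 ± 0.075 (adjusted p = 0.0917). The partner chains Col9a2 and Col9a3 were 0.19 ± 0.091 and 0.15 ± 0.15 with GREM1 and did not pass. Col14a1, Col16a1, Col19a1, Col20a1 and Col22a1, the last known from the muscle-tendon junction, differed from control by -0.11 to 0.083 with BMP4 and by -0.11 to 0.21 with GREM1.

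Col8a1 (Entrez gene 12837) encodes a short-chain collagen that forms hexagonal networks, known from the cornea and from vessel walls. It read 8.08, 7.56 and 7.88 in the controls, 7.41, 7.45 and 7.67 with BMP4 and 8.35, 8.12 and 8.49 with GREM1. All GREM1 arrays lie above the other 6, while BMP4 replicate 3 lies above control replicate 2. Col8a1 differed between BMP4 and GREM1 by -0.81 ± 0.15 (1.75-fold lower with BMP4, limma adjusted p = 0.0115), with the call lost without GREM1 replicate 1 (-0.79, adjusted p = 0.0524). Against control it was 0.48 ± 0.15 with GREM1, which did not pass (adjusted p = 0.104) but passed as a rise with the replicate block (limma adjusted p = 0.0276), and -0.33 ± 0.15 with BMP4 (adjusted p = 0.619). Its network partner Col8a2 differed by 0.07 ± 0.084 and 0.068 ± 0.084. Col10a1, the collagen of growth-plate chondrocytes, was 6.07 in control replicate 1 against 5.40 to 5.69 in the other 8 arrays, and did not pass (-0.28 ± 0.14 and -0.14 ± 0.14).

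Type VI collagen forms beaded filaments next to the muscle basement membrane, and defects in Col6a1, Col6a2 and Col6a3 cause congenital muscle disease. Col6a1 read 5.07, 5.60 and 5.41 in the controls, 5.44, 5.48 and 5.47 with BMP4 and 5.06, 5.49 and 5.41 with GREM1. Replicate 1 is the lowest array in all 3 groups and the groups overlap, with 0.10 ± 0.15 for BMP4 and -0.042 ± 0.15 for GREM1. Col6a2, its neighbour on chromosome 10, read 4.75, 4.62 and 4.34 in the controls, 4.73, 4.91 and 4.62 with BMP4 and 4.53, 4.59 and 4.32 with GREM1. Its BMP4 arrays lie above its GREM1 arrays by 0.27 ± 0.13 (adjusted p = 0.279). Col6a3 read 4.17, 4.24 and 4.20 in the controls and differed by -0.054 ± 0.081 with BMP4 and 0.094 ± 0.081 with GREM1. Col6a4 and Col6a6 lay within 0.1 of the controls, and Col6a5 and the type VI-like Col28a1 were too dim to be tested, at 3.67 to 3.75 and 3.25 to 3.80. Col26a1, placed with them here, was -0.12 with BMP4 and 0.078 with GREM1.

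Transmembrane collagens are anchored in the plasma membrane. Col13a1, which acts at the neuromuscular junction, read 5.48, 5.44 and 5.27 in the controls, 5.46, 5.43 and 4.86 with BMP4 and 5.62, 5.78 and 5.76 with GREM1. Its GREM1 arrays lie above all others, with 0.32 ± 0.15 against control (adjusted p = 0.279) and -0.47 ± 0.15 between BMP4 and GREM1 (adjusted p = 0.118). Col25a1, which motor axons need to enter muscle, read 6.12, 6.08 and 5.28 in the controls, 6.37, 6.43 and 5.76 with BMP4 and 6.25, 6.02 and 5.48 with GREM1. Replicate 3 was the lowest array in each group, and the differences of 0.36 ± 0.28 and 0.091 ± 0.28 did not pass. Col17a1 and Col23a1 differed by -0.093 and -0.099 with BMP4 and by -0.006 and -0.17 with GREM1.

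**Figure D2:**
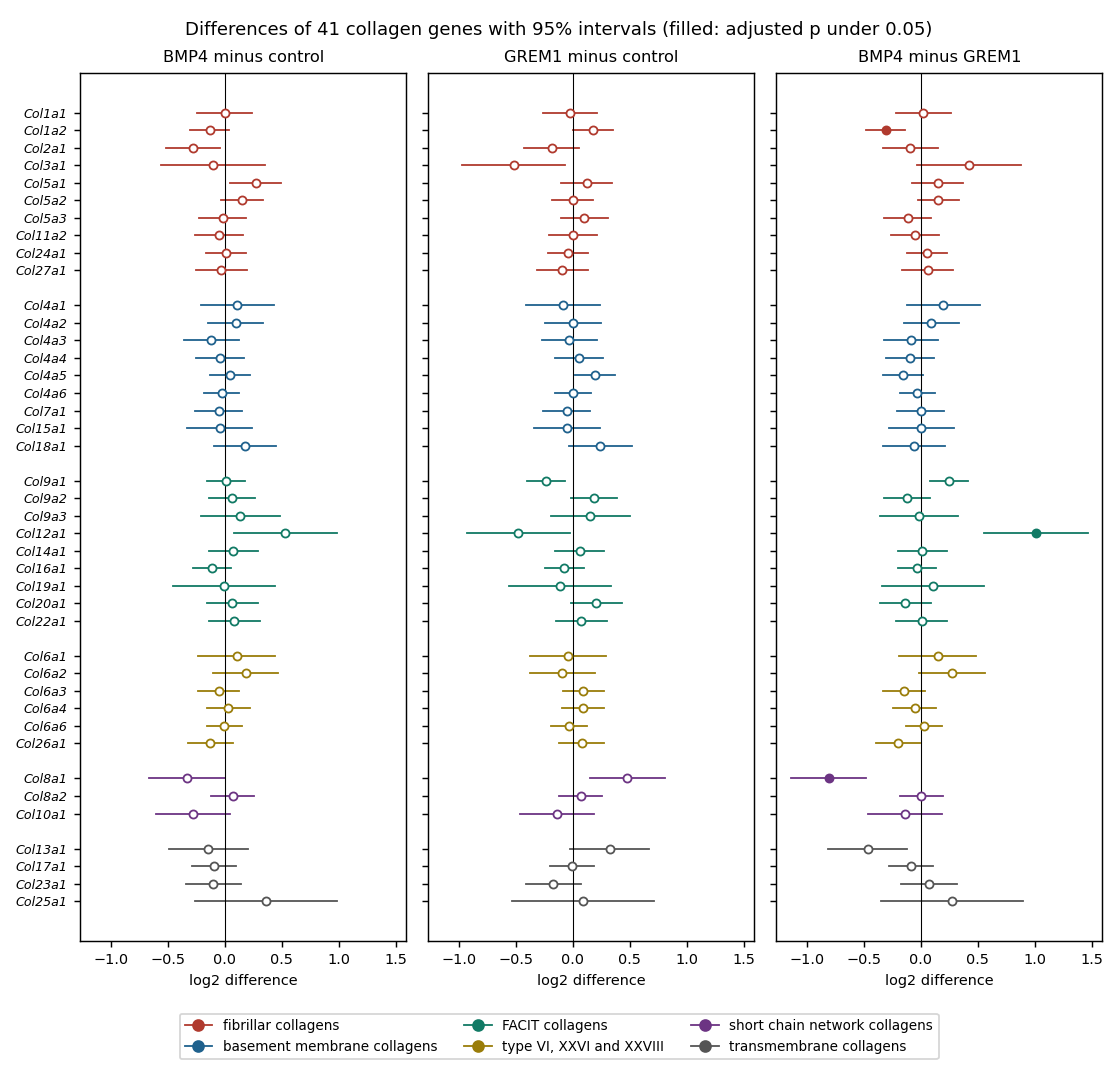
Log2 differences of the 41 tested collagen genes (points) with 95% confidence intervals (lines) for BMP4 minus control, GREM1 minus control and BMP4 minus GREM1, coloured by structural class, with filled points where the limma adjusted p was under 0.05. The filled points are Col12a1, Col8a1 and Col1a2 in the comparison of BMP4 with GREM1.

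Counted over the family, 0 of 41 passed with BMP4 against control, where 0.117% of all tested genes passed, and 0 of 41 with GREM1 against control, where 4.28% did, 2.07% higher and 2.21% lower (limma). At an unadjusted p under 0.05 there were 4, 6 and 6 members with BMP4, with GREM1 and between them, beside 8.02%, 20.0% and 19.4% of all genes. With the replicate block 0 and 2 members passed against control, beside 0.379% and 11.6% of all genes. Between BMP4 and GREM1 3 of 41 passed (7.32%), beside 6.45% of all genes, 1 higher with BMP4 (3.62% of all) and 2 lower (2.83% of all). Groups did not overlap for 5, 11 and 8 of the 41 with BMP4, with GREM1 and between them, which is 12.2%, 26.8% and 19.5%, beside 11.2%, 24.0% and 24.5% of all genes, so these 3 shares are near those of all genes. Controls lay between non-overlapping BMP4 and GREM1 arrays for Col12a1 and Col1a2, 2 of 41 (4.88%), beside 1.79% of all genes, a count chosen after the values were seen. Both comparisons with control share the same 3 control arrays.

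The intervals bound the changes in array signal that could have been missed. Of the 44 members 25 passed a stricter filter at the 50th percentile, so many tested members were dim. Whether such dim genes would show a change in their transcripts was not tested. The 95% interval lay inside a 2-fold change in either direction for all 41 genes with BMP4 (97.7% of all genes) and all 41 with GREM1 (94.3%), and for 39 between BMP4 and GREM1 (93.6%), the exceptions being Col12a1 and Col8a1. It lay inside 0.5 on the log2 scale for 35, 34 and 33 of the 41 (75.1%, 66.4% and 67.6% of all genes). The median size of a difference, regardless of sign, was 0.093, 0.091 and 0.098 over the collagens and 0.097, 0.13 and 0.12 over all genes.

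The other classes together, 22 tested genes, had median differences of 0.023 with BMP4, 0.065 with GREM1 and -0.0073 between them. In the genome 15 of the 44 genes lie next to another collagen gene, in 8 neighbouring pairs. Col3a1 and Col5a2, adjacent on chromosome 1, were -0.52 ± 0.20 and -0.0014 ± 0.081 with GREM1. Col9a1 and Col19a1, also on chromosome 1, were -0.24 ± 0.075 and -0.11 ± 0.20, and Col4a5 and Col4a6 on the X chromosome 0.20 ± 0.078 and 0.0029 ± 0.069. None of the 3 called genes is next to another member.

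Genes that fold, modify and cross-link collagen were compared as a list of 21 tested genes. With BMP4 1 of the 21 rose (4.76%, beside 0.117% of all genes), P4ha3, a catalytic subunit of prolyl 4-hydroxylase, from 4.43, 4.65 and 4.65 to 5.41, 5.34 and 5.84 (0.95 ± 0.13, limma adjusted p = 0.0331). This call was lost when any array except BMP4 replicate 3 was left out. It was also lost with centring on array medians and when only the groups compared were fitted (highest adjusted p = 0.201 over the alternatives). With GREM1 3 rose and 0 fell (14.3%, beside 2.07% of all genes higher and 2.21% lower), and with the replicate block 4 rose and 4 fell, beside 11.6% of all genes called. Of these the lysyl oxidase family member Loxl1 rose by 0.86 ± 0.13 (adjusted p = 0.00829), and the call held under every alternative. P4ha1 and the ER cation channel Tmem38b rose by 0.52 ± 0.12 and 0.88 ± 0.20 (adjusted p = 0.0485 and 0.0388), but each lost the call without control replicate 1 or 3, BMP4 replicate 1 or 2 or any one GREM1 array, and P4ha1 also without BMP4 replicate 3 (highest adjusted p = 0.135 and 0.134). Both calls were also lost with no filter. The P4ha1 call was further lost with array weights, with centring on array medians and when only the groups compared were fitted. In the comparison of BMP4 with GREM1, 4 were higher and 1 lower with BMP4 (23.8%, beside 3.62% of all genes higher and 2.83% lower). P4ha3 (1.38 ± 0.13, adjusted p = 3.07e-04) kept its call under all 18 alternatives, and the cross-linking enzyme Lox (0.55 ± 0.071, adjusted p = 0.00169) under the 17 in which it was tested, being too dim for the filter at the 50th percentile. Loxl3 (0.65), the prolyl 3-hydroxylase P3h2 (0.32) and, in the other direction, Loxl1 (-0.62) lost the call when single arrays were left out (highest adjusted p = 0.0947, 0.101 and 0.0841). For Loxl3 these were BMP4 replicate 3 or any GREM1 array, for P3h2 control replicate 2 or any BMP4 or GREM1 array, and for Loxl1 any BMP4 array or GREM1 replicate 1 or 2. The P3h2 call was also lost when quantile normalization was applied once more. The list median was 0.18, -0.0071 and 0.18 in the 3 comparisons. Before adjustment 6, 3 and 9 of the 21 were higher and 0, 6 and 2 lower (limma p under 0.05). Of all genes 8.02%, 20.0% and 19.4% had such a p in either direction. The chaperone Serpinh1 was 0.46 ± 0.17 with BMP4 and 0.31 ± 0.17 with GREM1 and did not pass.

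Of 11 tested genes of procollagen secretion and cleavage, 0 passed against control in limma (4 at an unadjusted p under 0.05 with either protein, beside 8.02% of all genes with BMP4 and 20.0% with GREM1, 0 with the block for BMP4, and 2 higher and 1 lower with it for GREM1). Between BMP4 and GREM1, 2 were higher and 1 lower with BMP4 (27.3%, beside 6.45% of all genes). Creb3l1, a transcription factor that drives collagen secretion genes, read 7.92, 7.86 and 8.05 in the controls, 8.41, 8.22 and 8.87 with BMP4 and 7.62, 7.35 and 7.12 with GREM1, and was 1.14 ± 0.17 higher with BMP4 (adjusted p = 0.00483). The procollagen protease Adamts14 was lower by 0.84 on the log2 scale (-0.84 ± 0.11, adjusted p = 0.00152), and both calls held under every alternative. The enhancer of procollagen cleavage Pcolce2 was higher by 1.17 ± 0.23 (adjusted p = 0.0149), which was lost without BMP4 replicate 3 or GREM1 replicate 1 or 2 (highest adjusted p = 0.0588).

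Of 9 tested partners of fibrils, 0 passed in any of the 3 comparisons in limma. At an unadjusted p under 0.05 there were 1, 0 and 1, beside 8.02%, 20.0% and 19.4% of all genes. Biglycan, Bgn, was 0.42 ± 0.12 with BMP4 (adjusted p = 0.438) and fibronectin, Fn1, -0.011 ± 0.090, while decorin, Dcn, was too dim to be tested. Of 13 tested basement membrane partners, 0 passed against control in limma (2 with BMP4 and 4 with GREM1 at an unadjusted p under 0.05, beside 8.02% and 20.0% of all genes) and 2 differed between BMP4 and GREM1 (15.4%, beside 6.45%). The laminin chain Lama5 was lower with BMP4 (-0.70 ± 0.10, adjusted p = 0.00405) and Lamb3 higher (0.76 ± 0.15, adjusted p = 0.0146, and 0.0633 without GREM1 replicate 1). With the block, 3 rose and 1 fell with GREM1, beside 11.6% of all genes called. Of 10 tested collagen receptors, 0 passed with BMP4 against control in limma (2 at an unadjusted p under 0.05, beside 8.02% of all genes). In the same list 1 was called with GREM1 (10%, beside 4.28% of all genes) and 3 between BMP4 and GREM1 (30%, beside 6.45%). Adgrg1, a receptor of type III collagen, rose with GREM1 from 6.97, 6.96 and 6.68 to 8.39, 8.43 and 8.92 (1.71 ± 0.15, adjusted p = 7.27e-04), and the call held under every alternative. With BMP4 Adgrg1 was lower than with GREM1 (-1.61, adjusted p = 3.23e-04), and the integrin subunit Itga2 (0.38) and the discoidin receptor Ddr1 (0.47) were higher. The Itga2 call was lost without any one BMP4 array or GREM1 replicate 2 or 3, and when only the groups compared were fitted (highest adjusted p = 0.0853). The Ddr1 call was lost without replicate 1 or 2 of either group (highest adjusted p = 0.0759). Against control Ddr1 was 0.60 with BMP4 and 0.13 with GREM1. The BMP4 difference passed only with array weights (limma adjusted p = 0.0260) and with the filter at the 50th percentile (0.0474).

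Markers of other cell types moved in the same comparison as Col12a1, Col8a1 and Col1a2, and their part in the result was not tested. The share of all genes that passed there was 6.45%, made up of 3.62% higher and 2.83% lower with BMP4. Of 9 tested osteoblast and cartilage markers Sp7 alone passed, higher with BMP4 than with GREM1 by 4.56 ± 0.095 (adjusted p = 2.16e-08), and Ibsp, Phex, Acan and Hapln1 were too dim. The summed linear level of that list was 605 to 662 in the controls, 991 to 1084 with BMP4 and 462 to 505 with GREM1. Of 5 tested tendon markers Scx was lower with BMP4 (-0.95 ± 0.16, adjusted p = 0.00920), with Tnmd and Kera too dim. Another was higher by 0.59 and did not pass (unadjusted limma p under 0.05), and the median was -0.057. The tendon list summed to 1105 to 1362, 850 to 1124 and 1532 to 1794. Of 7 tested pericyte and smooth muscle markers 1 was higher and 2 lower with BMP4 (42.9%, beside 6.45% of all genes), with Kcnj8, Higd1b and Cnn1 too dim, and the list summed to 1140 to 1959, 1841 to 2047 and 3207 to 3591. Of 5 tested leukocyte markers Laptm5 was lower with BMP4 (-1.54), with Ptprc, Adgre1 and Cd3e too dim, and the list summed to 350 to 383, 321 to 330 and 528 to 650. Of 12 myogenic markers 4 were lower with BMP4 than with GREM1 (33.3%, beside 2.83% of all genes) and 0 higher. Before adjustment 5 were lower and 2 higher (limma p under 0.05), and the highest difference was 1.02, so the list was split. It summed to 9305 to 12240, 11660 to 12780 and 13670 to 14380. Of 6 endothelial markers tested 0 passed in limma (1 at an unadjusted p under 0.05, beside 19.4% of all genes), with Kdr, Tek, Emcn and Cldn5 too dim. The endothelial list, dim members included, summed to 208 to 222, 215 to 215 and 217 to 229. Of 4 tested Schwann cell markers 0 passed in limma (1 at an unadjusted p under 0.05, beside 19.4% of all genes). S100b and Cdh19 were too dim, but the list summed to 212 to 399, 203 to 337 and 441 to 599. Its member Erbb3, a neuregulin receptor, differed between BMP4 and GREM1 by -1.33 ± 0.41 (limma adjusted p = 0.101). Against control it was 1.18 ± 0.41 with GREM1, which did not pass (limma adjusted p = 0.146) but passed with the replicate block (limma adjusted p = 0.00406). In the myogenic, pericyte and smooth muscle, and leukocyte lists, 4, 2 and 1 markers rose with GREM1 against control and 0 fell (limma). Of all genes 2.07% rose there. With the replicate block 5, 3 and 1 of them rose and 1, 0 and 0 fell, beside 11.6% of all genes called. The lowest difference of a myogenic marker with GREM1 was -0.85, so that list did not move in 1 direction. With BMP4 against control, 0 markers of these lists passed, beside 0.117% of all genes. Before adjustment, 3, 2 and 2 of the 12, 7 and 5 tested were lower and 1, 2 and 0 higher with BMP4 (limma p below 0.05). Of all genes 8.02% had such a p in either direction. Within the collagens, control replicate 3 and BMP4 replicate 3 stood highest on the first principal component, which held 43.4% of the collagen variance, at 0.68 and 1.51, and the GREM1 arrays lowest, at -0.925 to -0.631.

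**Figure D3:**
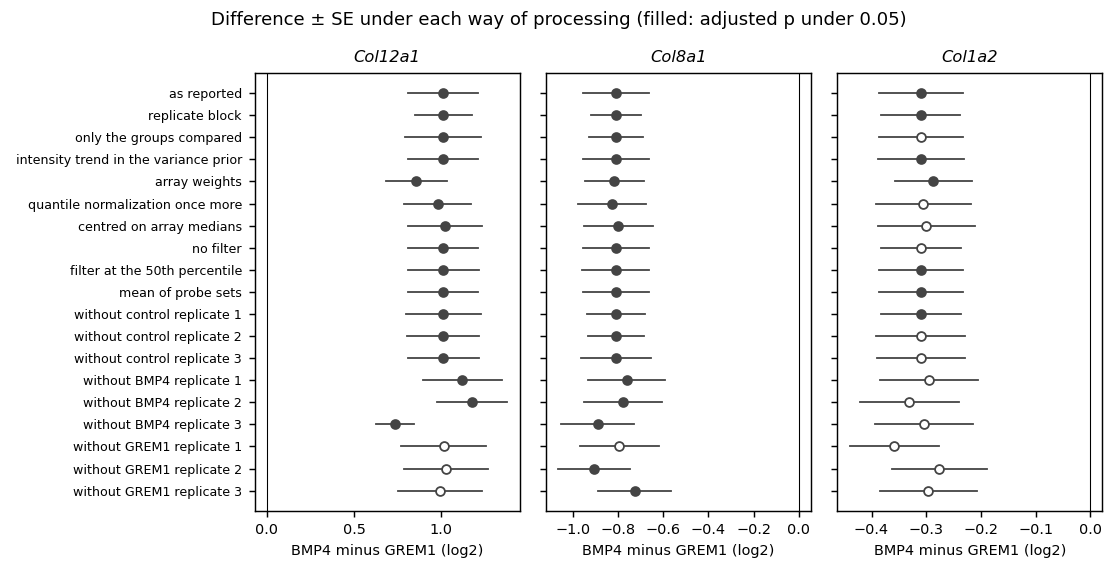
Difference between BMP4 and GREM1 on the log2 scale with its SE (lines) for Col12a1, Col8a1 and Col1a2, as reported and under each alternative, with filled points where the adjusted p was under 0.05. Col8a1 missed the threshold without GREM1 replicate 1, Col12a1 without each GREM1 array in turn, and Col1a2 under 12 of the 18 alternatives, while no difference changed sign.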

How the data were processed

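Expression was measured on 9 Affymetrix arrays. The deposited table holds log2 values, and the submitters' processing notes name RMA and Affymetrix Expression Console. RMA combines background correction, between-array normalization and a summary per probe set. Neither the array model nor a genome build is named in those sources. Probe set identifiers are Entrez gene numbers, and of 24973 probe sets 24015 had a gene symbol and 958 had none here. All 44 collagen genes were found in RefSeq under their identifiers. Where a gene had several probe sets, the one with the highest mean was taken. The filter kept 17142 genes whose value exceeded the array's 30th percentile over named probe sets (3.89 to 4.02) in 3 or more arrays. These values carry no detection call, so "too dim" means below this filter, and levels of different genes were not compared.

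Differences were tested two-sided by the lmFit and eBayes functions of limma 3.58.1 (R 4.3.3), fitted to all 9 arrays, with Benjamini-Hochberg adjustment over all tested genes and a threshold of 0.05. The 95% intervals are per gene and unadjusted. Lists are described by counts and medians, with no list test. The named genes are all collagens, and from other lists up to 6 members past the threshold. The called myogenic markers and the called pericyte and smooth muscle markers are given as counts only. Serpinh1, Bgn, Fn1, Dcn and Erbb3 were chosen after their values were seen. Members and lists were chosen with earlier results of these data known. Nothing in the labels tells whether the replicates came from separate cultures. The p-values therefore reflect only how these samples varied, which may be technical. After group means were removed, same-numbered arrays correlated at 0.17 to 0.58 for BMP4 and control and at 0.12 to 0.47 for GREM1 and control. Arrays with different numbers reached 0.14 and 0.16, so the ranges overlap for GREM1 and control. All same-numbered values were above a limit of 0.1 set here, so the numbers were taken to pair these samples, on the data alone. This pairing is uncertain for GREM1 and control, and so are the calls that rest on it. For BMP4 and GREM1 1 same-numbered pair was at 0.089, and the numbers were not taken to pair them. The limit thus fell between 0.089 and 0.118, the lowest same-numbered value for GREM1 and control. Numbers that pair the controls with both treated groups would also pair those groups with each other, so the readings conflict. The block fit used 1 replicate term over all 9 arrays. Its calls for GREM1 against control therefore also assume the pairing of BMP4 with GREM1. Alternatives were this replicate block, other variance settings, array weights, normalization, centring, filters, the mean of probe sets and leaving out each array. The fit was tested on simulated data.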

Additional observations from a re-analysis of the deposited data

How the results depend on the processing

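The count of collagen genes called between BMP4 and GREM1 was 3, and 0 to 3 when single arrays were left out, being 0 without GREM1 replicate 1 and 1 without GREM1 replicate 2 or 3, where Col8a1 was called. For GREM1 against control the count of 0 became 2 with the replicate block (Col3a1 and Col8a1), 1 with array weights (Col8a1) and 0 to 1 when single arrays were left out (Col12a1 without BMP4 replicate 3). For BMP4 against control it stayed at 0 under all 18 alternatives. With the replicate block 4 collagens were called between BMP4 and GREM1, Col3a1 being added, and there the replicate numbers were not taken to pair the arrays. Counts of collagens with non-overlapping groups ranged from 5 to 11, 11 to 18 and 8 to 17 in the 3 comparisons when single arrays were left out, since fewer arrays overlap less. The median of basement membrane collagens with BMP4 was 0.095 with the filter at the 50th percentile, against -0.028, as fewer genes were tested, and the other class medians moved by less than 1 SD between replicates. Of 3078 differences of single genes under alternatives, 77 lost a call, 24 gained one and 0 called differences changed sign. Leaving out an array of a group leaves 2, and the small number of arrays limits the precision.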
